A study of Mus musculus with 14 samples.

Results

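Voltage-gated sodium channel genes were examined in mouse cerebellum and in its Purkinje cells. The set is a list of gene names, chosen with earlier results of these data known. It holds 4 pore-forming alpha subunits (Scn1a, Scn2a, Scn3a and Scn8a), 3 auxiliary beta subunits (Scn2b, Scn3b and Scn4b) and the sodium leak channel gene Nalcn. These are 8 of the 24100 genes in the count table, and all 8 passed the filter on low counts in every comparison. All mice were taken at postnatal day 21 and carried the Tg(Pcp2-L10a-EGFP) transgene, which tags ribosomal protein L10a with EGFP under the Purkinje cell promoter Pcp2. Littermates were either wild type (WT) at Astn2 or lacked it (knockout, KO). Translating ribosome affinity purification (TRAP) recovers RNA on tagged ribosomes with anti-GFP antibodies, and input is the cleared homogenate of the whole cerebellum set aside before it. Libraries numbered 4 for input WT (1 female, 3 male), 3 for input KO (2 female, 1 male), 3 for TRAP WT (1 female, 2 male) and 4 for TRAP KO (2 female, 2 male). The labels do not say whether a library is a single animal, so p-values measure the spread between these libraries.

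An alpha subunit forms the pore that opens on depolarization and carries the upstroke of the action potential. Beta subunits are small single-pass membrane proteins that alter gating and surface delivery of the alpha subunit. Purkinje cells fire spontaneously at high rates, and the current that reopens after each spike in these cells, called resurgent, depends largely on Scn8a and has been tied to Scn4b. Nalcn is related to the alpha subunits but carries a background sodium leak and is not gated by voltage in the usual way. ASTN2 is a membrane protein implicated in the trafficking of neuronal surface proteins. The labels give the aim as the measurement of Purkinje cell expression changes in mice lacking it.

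In RefSeq annotation of GRCm38.p6, Scn3a (Entrez 20269) lies at chr2:65457118-65567591 on the minus strand. Scn2a (110876) lies at chr2:65620764-65767447 on the plus strand and Scn1a (20265) at chr2:66270781-66440837 on the minus strand. Scn8a (20273) lies at chr15:100869863-101045938, plus strand, and Nalcn (338370) at chr14:123275678-123627330, minus strand. The beta subunit genes are all on the plus strand of chromosome 9, with Scn3b (235281) at chr9:40269216-40291618, Scn2b (72821) at chr9:45117876-45130070 and Scn4b (399548) at chr9:45138624-45154155. Scn2b and Scn4b are thus neighbours, 8.6 kb apart with 0 protein-coding genes between them. No exon of another annotated gene overlaps an exon of any of the 8 genes in GENCODE M21.

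The start-site windows of these neighbours are shown because Scn4b and Scn2b differed in how strongly they were recovered with Purkinje ribosomes (values follow). Each window runs from 250 bases before to 50 bases after the annotated start, 5′ to 3′ on the plus strand, from RefSeq on GRCm38.p6, with CG dinucleotides in capitals.
Scn2b, chr9:45117626-45117925: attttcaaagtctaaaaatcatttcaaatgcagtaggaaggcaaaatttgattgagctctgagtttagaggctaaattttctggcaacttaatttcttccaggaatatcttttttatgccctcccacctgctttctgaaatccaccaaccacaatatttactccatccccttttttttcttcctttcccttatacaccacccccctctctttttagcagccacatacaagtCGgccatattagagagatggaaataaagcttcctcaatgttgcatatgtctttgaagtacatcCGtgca
Scn4b, chr9:45138374-45138673: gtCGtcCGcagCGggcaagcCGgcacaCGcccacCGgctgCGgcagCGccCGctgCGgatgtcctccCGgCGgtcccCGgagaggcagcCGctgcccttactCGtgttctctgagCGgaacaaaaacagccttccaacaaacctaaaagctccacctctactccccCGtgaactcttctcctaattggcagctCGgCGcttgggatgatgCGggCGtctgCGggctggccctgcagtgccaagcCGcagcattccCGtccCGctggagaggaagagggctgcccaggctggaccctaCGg

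The Scn2b window holds 2 CG dinucleotides and the Scn4b window 26. Over all 32851 windows of this length the median is 7, with quartiles of 3 and 20. The GC content was 38.3% for Scn2b and 66.3% for Scn4b, against a median of 52.7%. Windows were present for 6 of the 8 genes, and the 2 windows of Scn8a hold 38 and 12 CG dinucleotides. The core motif AGGTCA of ROR nuclear receptors, searched on both strands, occurs at 1 place in the Scn1a window, at 1 place in the downstream window of Scn8a, and in 16.3% of all windows. A match of letters is a description of the window only.

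Library totals ranged from 18.8 M to 54.2 M counts. Levels are given as CPM, counts scaled to a common library size with TMM factors. Astn2 itself was at 87.8 to 104 CPM in input WT and 0.739 to 0.970 CPM in input KO, and at 116 to 145 CPM in TRAP WT and 1.06 to 2.10 CPM in TRAP KO. The summed level of 10 Purkinje markers was 7073 to 8588 CPM in input and 80698 to 99367 CPM in TRAP, and all 10 rose in both genotypes. The summed level of 8 granule cell markers was 5573 to 5867 CPM in input and 825 to 1488 CPM in TRAP. RNA of other cells was thus still present in TRAP, where 0 of the granule, interneuron, astroglia and oligodendrocyte markers were at 0 counts in any library. TRAP WT replicate 3 stood apart from the other TRAP WT libraries, with a median absolute difference of 0.35 on the log2(CPM + 1) scale over genes against 0.19 and 0.25 for the others. Results that rest on it are given with and without it.

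Levels of different genes were compared as CPM per kb of the longest GENCODE transcript. In input WT the order of the alpha subunits was Scn2a at 23.1 ± 1.09 CPM per kb, Scn8a at 16.5 ± 1.14, Scn1a at 9.26 ± 1.29 and Scn3a at 0.246 ± 0.0427 (SD, n = 4). The ranges of neighbours in this order did not overlap. Nalcn, at 7.19 ± 0.540 CPM per kb, lay below Scn1a, with 7.71 as its highest library against 8.23 as the lowest of Scn1a. Among the beta subunits, Scn2b stood at 56.1 ± 1.71 CPM per kb, Scn4b at 8.69 ± 2.57 and Scn3b at 1.70 ± 0.492. The ranges of Scn4b and Nalcn overlapped in input WT. In input KO all of Nalcn (7.27 ± 0.246 CPM per kb, SD, n = 3) lay above all of Scn4b (6.61 ± 0.387), as the plot of per-length levels shows.

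**Figure D1:**
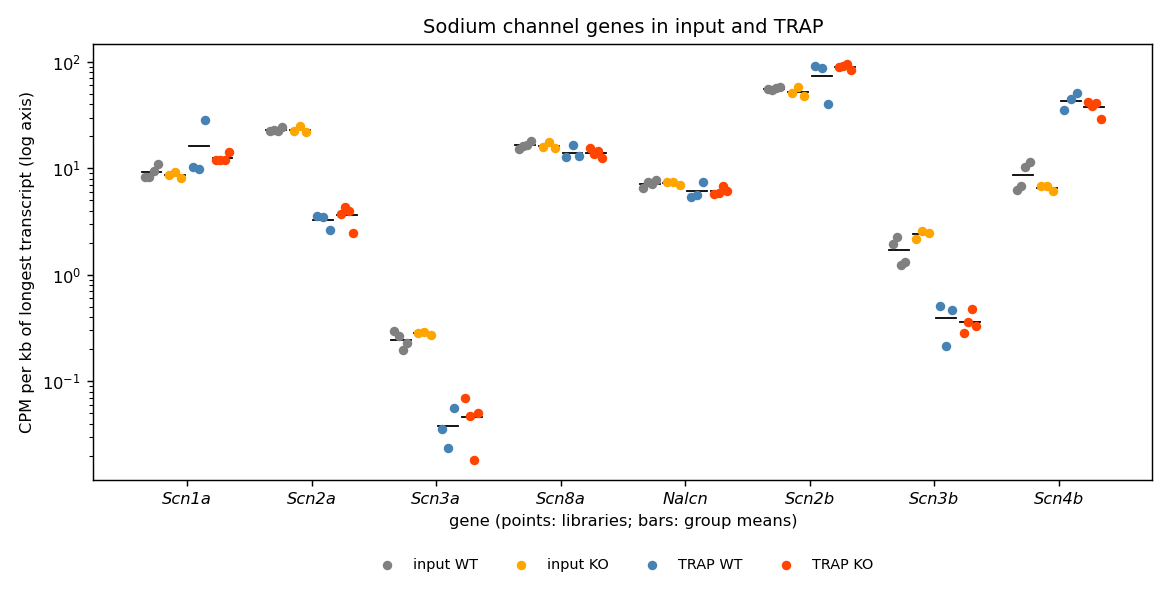
Level of the 8 sodium channel genes in each of 14 libraries, in CPM per kb of longest transcript on a log axis. Points are libraries and black bars are group means. Scn2a, Scn3a and Scn3b lie lower in TRAP than in input in both genotypes and Scn4b lies higher.

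The order on Purkinje ribosomes was different. In TRAP KO, Scn8a was at 12.6 to 15.4 CPM per kb and Scn1a at 11.9 to 14.1, so their ranges overlapped. Nalcn followed at 6.16 ± 0.449 CPM per kb (SD, n = 4), then Scn2a at 3.64 ± 0.815 and Scn3a at 0.0465 ± 0.0211 CPM per kb. Scn2b stood at 90.0 ± 4.93 CPM per kb, Scn4b at 37.7 ± 5.90 and Scn3b at 0.363 ± 0.0841. In TRAP WT, Scn8a was at 14.1 ± 2.06 CPM per kb and Scn1a at 16.3 ± 10.7 (SD, n = 3), the latter with a single library at 28.7.

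Enrichment of each gene with Purkinje ribosomes was tested as TRAP against input within each genotype. In WT, 2 of the 8 genes rose (Scn4b and Scn1a) and 3 fell (Scn2a, Scn3a and Scn3b) at an adjusted p under 0.05. Over all 16042 genes tested, 75.5% passed in WT, 37.0% higher and 38.5% lower. In KO, 2 rose (Scn4b and Scn2b) and the same 3 fell, where 75.9% of all genes passed, 36.3% higher and 39.6% lower. The 5 of 8 that passed in each genotype are no larger a share than among all genes. The median log2 fold change of all 8 was -0.21 in WT and -0.23 in KO, against -0.09 and -0.11 for all genes tested. Adjusted p-values here and below are from edgeR's quasi-likelihood test with Benjamini-Hochberg adjustment over all genes tested. In bulk libraries, fewer cells of a type and less RNA per cell cannot be told apart.

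Scn2a, an alpha subunit of unmyelinated and proximal axons, was at 201, 203, 200 and 221 CPM in input WT and at 32.0, 31.1 and 23.7 CPM in TRAP WT. In KO it was at 198, 223 and 197 CPM in input and at 33.3, 38.8, 35.7 and 22.1 CPM in TRAP. In both genotypes the highest TRAP value lay below the lowest input value. The log2 fold change was -2.85 ± 0.17 (SE) in WT, with an adjusted p of 5.00e-09, and -2.63 ± 0.16 (SE) in KO, with an adjusted p of 6.62e-09. These correspond to 7.20-fold lower in WT and 6.17-fold lower in KO. Only 3.29% of all genes tested in WT had a log2 fold change as low. The 8 granule cell markers, which all fell, had log2 fold changes from -3.03 to -1.84 in WT, with a median of -2.31. How much of the Scn2a left in TRAP came from other cells was not tested.

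Scn3a, the alpha subunit most abundant in the embryonic brain, was low throughout. It had 72 to 175 counts per library in input and 3 to 17 in TRAP. In CPM it was 1.87 to 2.81 in input WT, 2.59 to 2.78 in input KO, 0.224 to 0.536 in TRAP WT and 0.175 to 0.663 in TRAP KO. TRAP KO replicate 3 had 3 counts, the number taken as the smallest readable level. It fell by 2.61 ± 0.34 (SE) in WT and by 2.51 ± 0.30 (SE) in KO on this scale, for adjusted p-values of 9.41e-06 and 3.96e-06 (edgeR).

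Scn8a, which encodes the main alpha subunit of mature nodes and axon initial segments, stayed close to its input level. It was at 175, 184, 188 and 206 CPM in input WT and at 145, 188 and 150 CPM in TRAP WT. Input KO libraries were at 180, 202 and 178 CPM and TRAP KO libraries at 176, 154, 168 and 144 CPM. The groups overlapped in WT, and in KO every TRAP library lay below every input library. Neither genotype passed, at -0.22 ± 0.12 (SE) in WT and -0.21 ± 0.12 (SE) in KO (edgeR, adjusted p 0.109 and 0.127). Without TRAP WT replicate 2 the WT value was -0.41 and passed (adjusted p 0.00842). Of all 23 alternatives it passed in 5 in WT and 4 in KO. The scaling set its direction. When libraries were scaled by their totals it fell, by 1.04 (WT) and 0.94 (KO) on the log2 scale. Against genes of similar transcript length (loess offsets per library) it rose, by 0.94 in WT and 0.96 in KO. Adjusted p-values over all alternatives lay between 2.38e-06 and 0.358 (WT) and between 5.04e-06 and 0.372 (KO).

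Scn1a, an alpha subunit prominent in fast-spiking neurons, was at 69.6, 69.0, 79.7 and 92.1 CPM in input WT. In TRAP WT it was at 86.8, 83.3 and 241 CPM, the last being replicate 3. Input KO libraries were at 72.0, 77.7 and 67.7 CPM and TRAP KO libraries at 99.4, 100, 99.8 and 118 CPM, with no overlap. Scn1a had a log2 fold change of 0.83 ± 0.27 (SE) in WT, with an adjusted p of 0.0143. In KO it was 0.50 ± 0.28 (SE), with an adjusted p of 0.124. Without TRAP WT replicate 3 the calls exchanged. The WT value became 0.12 with an adjusted p of 0.376 (2.43e-05 to 0.993 over all alternatives). The KO value became 0.52 with an adjusted p of 7.29e-04 (2.49e-04 to 0.431). Scaled by library totals, the values were 0.00 in WT and -0.24 in KO.

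Shares within a library do not depend on a scale factor common to all its genes. Length offsets differ between genes by transcript length, which ran from 8386 (Scn1a) to 11436 bases (Scn8a) in the alpha subunits. They were not applied to the shares and ratios below. Of the summed per-length level of the 4 alpha subunits, Scn2a took 45.8% to 48.5% in the 7 input libraries and 5.95% to 14.6% in the 7 TRAP libraries. Scn8a took 33.0% to 34.0% in input and 29.4% to 55.0% in TRAP, where every library but TRAP WT replicate 3 was at 43.1% or above. Scn1a took 17.4% to 20.4% in input and 33.3% to 64.5% in TRAP, and at most 48.2% outside that library. Scn3a took 0.404% to 0.632% in input and 0.0600% to 0.223% in TRAP. The ratio of Scn8a to Scn2a per length was 0.680 to 0.733 in input and 3.10 to 5.10 in TRAP, without overlap. These ratios are given as descriptions, with no test.

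**Figure D2:**
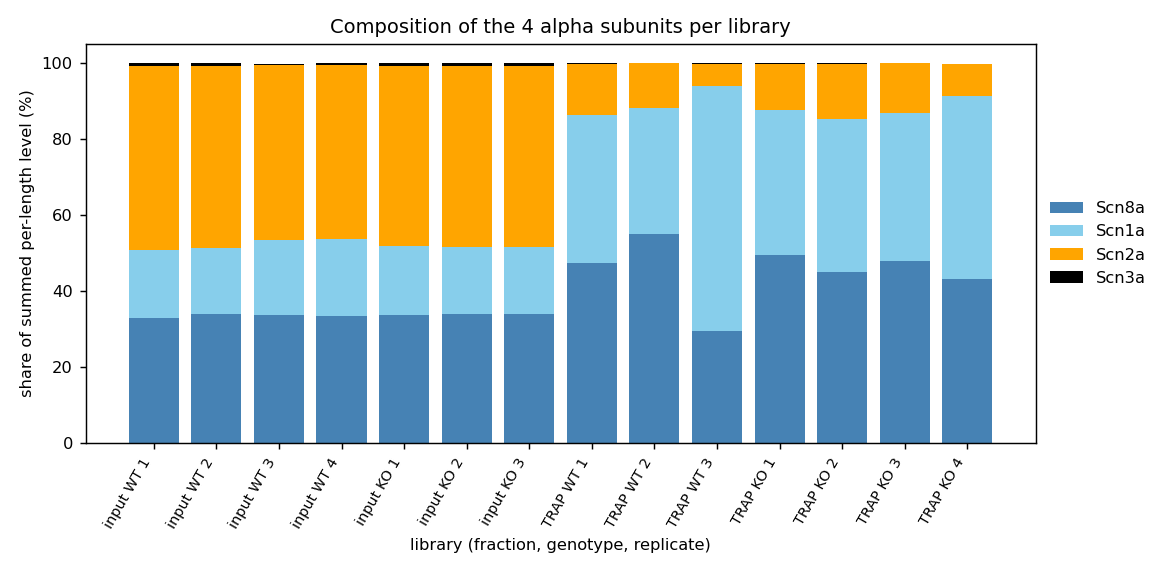
Share of each of 4 alpha subunits in their summed per-length level (CPM per kb), in percent, for each library. Bars stack to 100%. Scn2a takes 45.8% to 48.5% in input and 5.95% to 14.6% in TRAP, and TRAP WT replicate 3 has the highest share of Scn1a at 64.5%.

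Scn4b, a beta subunit whose cytoplasmic tail has been tied to resurgent current, had the highest log2 fold change of the 8 genes. It was at 31.1, 33.9, 50.7 and 57.5 CPM in input WT and at 174, 221 and 251 CPM in TRAP WT. Input KO stood at 33.7, 34.3 and 30.7 CPM and TRAP KO at 208, 191, 207 and 145 CPM. The lowest TRAP value was above the highest input value in both genotypes. Its log2 fold change was 2.34 ± 0.21 (SE) in WT, with an adjusted p of 1.90e-07, and 2.51 ± 0.22 (SE) in KO, with an adjusted p of 2.24e-07. These correspond to 5.05-fold in WT and 5.70-fold in KO. In WT 94.5% of all genes tested lay at or below this value. The 10 Purkinje markers had log2 fold changes from 2.28 to 4.99 in WT, with a median of 3.66.

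Scn2b, the most abundant of the 3 beta subunits per length in every library but TRAP WT replicate 3, was at 257, 253, 263 and 271 CPM in input WT and at 428, 405 and 186 CPM in TRAP WT. The low value is again replicate 3. Input KO stood at 236, 272 and 222 CPM and TRAP KO at 416, 423, 447 and 391 CPM, without overlap. Scn2b had a log2 fold change of 0.83 ± 0.21 (SE) in KO, with an adjusted p of 0.00245, and 0.36 ± 0.20 (SE) in WT, with an adjusted p of 0.120. Without TRAP WT replicate 3 the WT value was 0.64 with an adjusted p of 3.76e-05 (5.00e-06 to 0.749 over all alternatives). Scaled by library totals, it was -0.46 in WT and 0.10 in KO. Per length, the ratio of Scn4b to its neighbour Scn2b ranged from 0.113 to 0.198 (input) and from 0.348 to 1.26 (TRAP). TRAP WT replicate 3 had the highest.

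Scn3b, a beta subunit more abundant before birth, was at 8.07, 9.42, 5.16 and 5.53 CPM in input WT and at 2.11, 0.895 and 1.94 CPM in TRAP WT. Input KO stood at 8.99, 10.7 and 10.3 CPM and TRAP KO at 1.17, 1.51, 1.99 and 1.36 CPM. The TRAP libraries were lowest in both genotypes. It fell by 2.09 ± 0.30 (SE) in WT and 2.71 ± 0.28 (SE) in KO, for adjusted p-values of 2.58e-05 and 1.16e-06 (edgeR).

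Nalcn, the leak channel, was at 46.2, 53.4, 50.2 and 54.9 CPM in input WT and at 38.5, 40.0 and 52.8 CPM in TRAP WT. Input KO stood at 52.4, 53.1 and 49.8 CPM and TRAP KO at 41.3, 42.2, 48.5 and 43.4 CPM. The ranges overlapped in WT and not in KO. Nalcn had -0.21 ± 0.11 (SE) in WT and -0.25 ± 0.11 (SE) in KO on the log2 scale, and neither passed (edgeR, adjusted p 0.102 and 0.0557). Without TRAP WT replicate 3 both passed, at -0.38 (WT, adjusted p 0.00287) and -0.26 (KO, adjusted p 0.0107). The KO value also passed without input KO replicate 3 (-0.35, adjusted p 0.0293) and without TRAP WT replicate 2 (-0.27, adjusted p 0.0261). Of all 23 alternatives, Nalcn passed in 9 in KO, 8 of them lower, and in 5 in WT, 4 of them lower. Like Scn8a, it fell when scaled by library totals, by 1.03 (WT) and 0.98 (KO), and rose with length offsets, by 0.56 (WT) and 0.50 (KO). Over all alternatives, adjusted p-values lay between 2.65e-06 and 0.308 (WT) and between 3.42e-06 and 0.169 (KO). Its per-length ratio to Scn8a was 0.422 to 0.467 in input and 0.342 to 0.566 in TRAP, so the ranges overlapped.

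**Figure D3:**
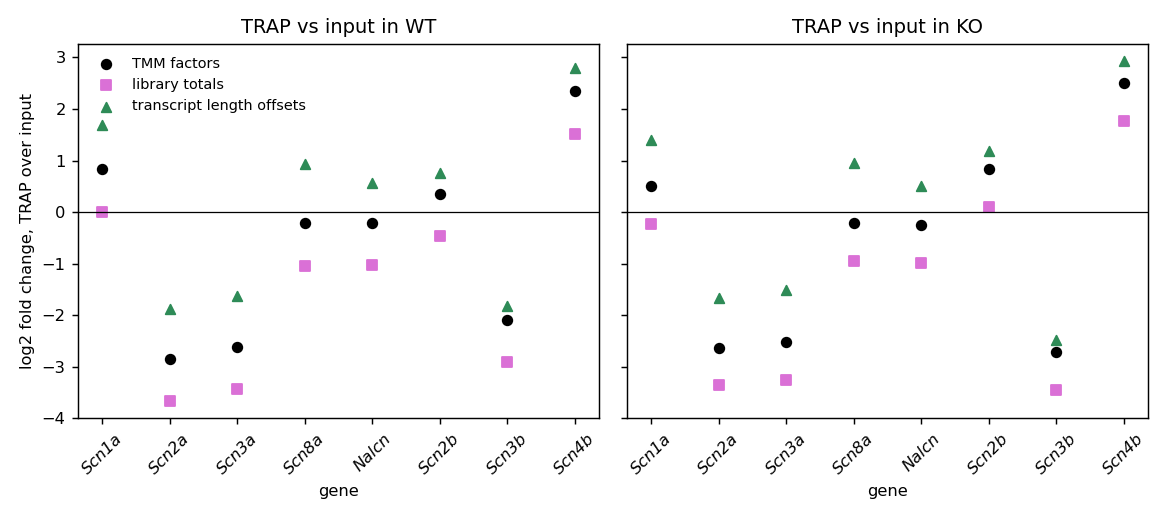
Log2 fold change of TRAP over input for the 8 genes under 3 scalings, in WT (left) and KO (right). Scn2a, Scn3a and Scn3b stay below 0 and Scn4b above 0 under each of the 3 scalings, while Scn8a and Nalcn in both genotypes, Scn2b in WT and Scn1a in KO do not keep 1 side.

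Partner and related genes were taken from lists by name. Of 5 other sodium channel subunit genes examined, 2 passed the low-count filter, and 1 rose and 1 fell in both genotypes. Scn9a, an alpha subunit best known from sensory neurons, rose by 1.91 ± 0.38 (SE) in WT and 1.78 ± 0.39 (SE) in KO (log2), from a low level of 1.19 to 1.34 CPM in input WT to 1.40 to 7.05 CPM in TRAP WT. Scn11a fell, by 2.11 in WT and 1.48 in KO. Scn4a, Scn7a and Scn10a had at most 10 counts in any library and were not tested.

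Of the 4 genes of the Nalcn channel complex, Fam155a and Tmem28, the auxiliary subunit genes also named Nalf1 and Nalf2, rose in both genotypes. Fam155a rose by 1.13 (WT) and 1.40 (KO) and Tmem28 by 1.77 (WT) and 1.93 (KO) on the log2 scale. The highest adjusted p of these 4 values was 0.00192 (edgeR). Scaled by library totals, Fam155a in WT did not pass (0.31, adjusted p 0.303). For Fam155a, TRAP WT replicate 3 was at 83.3 CPM, under the input WT range of 85.2 to 92.6 CPM, while the other TRAP WT libraries were at 230 and 274 CPM. Unc80, a large scaffold protein of the complex, did not pass, at 0.29 (WT) and 0.16 (KO). Its WT value without TRAP WT replicate 2 was 0.42 (adjusted p 0.0498). Its partner Unc79 had -0.41 ± 0.23 (SE) in WT, with an adjusted p of 0.117, and fell by 0.62 ± 0.23 (SE) in KO, with an adjusted p of 0.0234 (edgeR). Unc79 in WT without TRAP WT replicate 3 was at -0.84 (adjusted p 0.000998). In KO its call was lost without input KO replicate 2 or 3 or TRAP KO replicate 1 or 3, at -0.65 to -0.52. With length offsets Unc79 was at 0.51 (WT) and 0.32 (KO).

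Fibroblast growth factor homologous factors bind the cytoplasmic tail of alpha subunits and change their inactivation. Of the 4, Fgf11 rose by 3.04 ± 0.12 (SE) in WT and 2.76 ± 0.12 (SE) in KO (log2), from 73.2 to 82.4 CPM in input WT to 575 to 715 CPM in TRAP WT. Fgf13 fell by 1.97 ± 0.19 (SE) in WT and 2.03 ± 0.18 (SE) in KO. Fgf12 did not pass, at 0.23 (WT) and 0.14 (KO), and passed in WT without TRAP KO replicate 3 (0.23, adjusted p 0.0378). Of all 23 alternatives, Fgf12 passed in 5 in WT, 4 of them higher, and in 2 in KO, 1 of them higher. Fgf14 had -0.34 ± 0.17 (SE) in WT, with an adjusted p of 0.0905, and fell by 0.72 ± 0.17 (SE) in KO, with an adjusted p of 0.00157 (edgeR). Without TRAP WT replicate 3 its WT value was -0.52 (adjusted p 0.0143).

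Among 4 scaffold genes of the axon initial segment, where sodium channels are concentrated, 3 fell in both genotypes and 0 rose. Of all genes tested, 38.5% fell in WT and 39.6% in KO, and a list of 4 is too short to set against these shares. Ank3, which encodes ankyrin G, fell by 1.43 ± 0.10 (SE) in WT and 1.38 ± 0.10 (SE) in KO. Sptbn4, a beta spectrin, fell by 1.16 in WT and 0.84 in KO, and Nrcam, an adhesion protein, fell by 0.55 in WT and 0.97 in KO. The Nrcam call in WT was lost without any of 9 single libraries, at -0.57 to -0.34. Nfasc had -0.16 (WT) and -0.26 (KO) and did not pass, but without TRAP WT replicate 3 it passed at -0.46 (WT, adjusted p 0.00678) and -0.26 (KO, adjusted p 0.0468). With length offsets Nfasc was higher in TRAP, at 0.85 in WT and 0.77 in KO, Sptbn4 did not pass (-0.22 in WT, 0.08 in KO) and neither did Nrcam (0.10 in WT, -0.33 in KO). Ank3 alone of the 4 kept its call in both genotypes under every alternative.

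**Figure D4:**
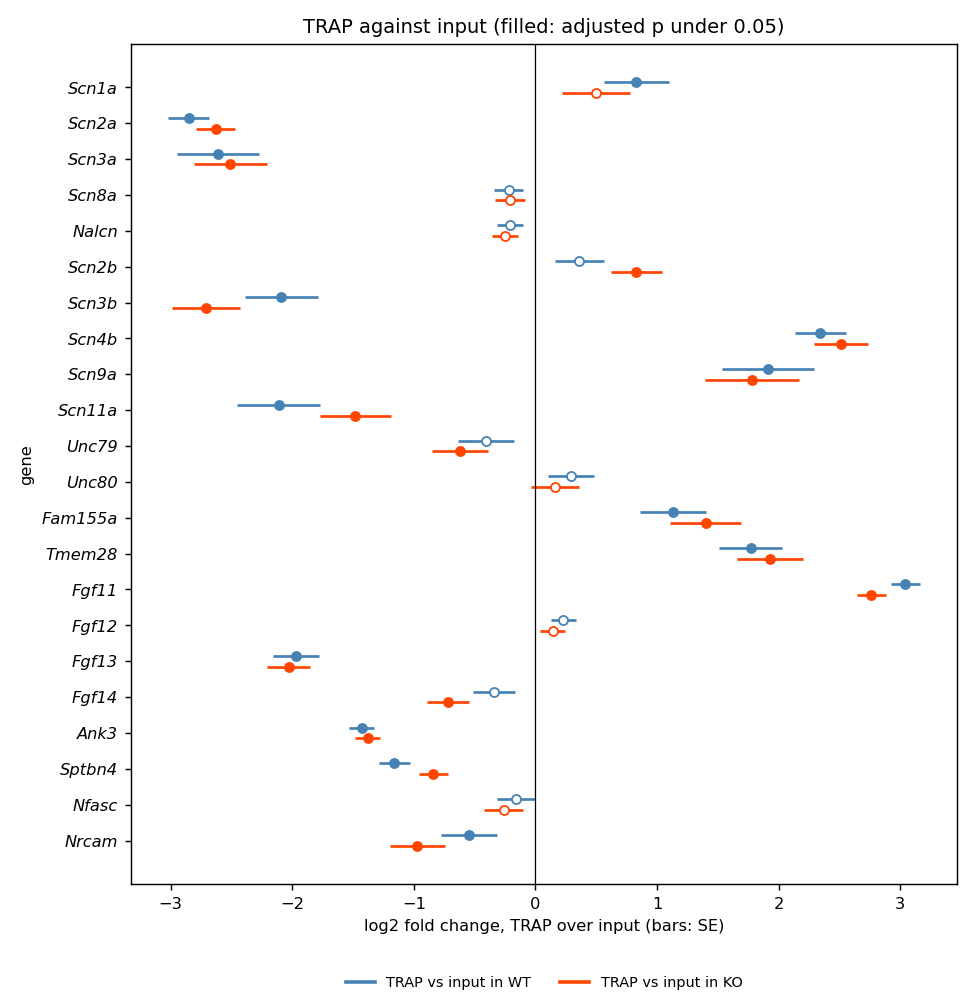
Log2 fold change of TRAP over input with its standard error, in WT and KO, for the 8 sodium channel genes and 14 related genes that could be tested. Filled points passed an adjusted p of 0.05 and open points did not. Fgf11 has the highest value (3.04 in WT) and Scn2a the lowest (-2.85 in WT).

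Genes with the most similar pattern were sought by Pearson correlation of log2(CPM + 1) over the 14 libraries, among 10147 genes. For Scn4b they were Nat8l (r = 0.9950), Thy1 (0.9934) and Lpcat4 (0.9930). For Scn2a they were Slc12a2 (0.9980), Prune2 (0.9972) and Ntrk2 (0.9971). For Scn8a the closest was Nat14 (0.9145) and for Nalcn it was Gria1 (0.9459), so these 2 genes had no match as close. All libraries share the difference between TRAP and input, which many genes follow, and the values carry no test.

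Effects of the Astn2 knockout were tested within each fraction, with sex as a covariate. In TRAP, 0 of the 8 sodium channel genes passed an adjusted p of 0.05 and 0 had an unadjusted p under 0.05 in edgeR's test, against 212 of 14145 genes in all at the unadjusted threshold. Of all 14145 genes tested, 0.00707% passed, which is Astn2 alone. In input 0 of 8 passed and 0 had an unadjusted p under 0.05, where 0.0188% of 15997 genes passed and 2198 had an unadjusted p under 0.05. The number that passed was 0 in every alternative, the DESeq2 Wald test and each left-out library among them. In TRAP, only 6 of the 8 were tested with a mean count of at least 50 and 7 without TRAP KO replicate 1. At an unadjusted p under 0.05 the alternatives gave 0 genes in TRAP and 0 to 2 in input.

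In TRAP the log2 fold changes of KO over WT ran from -0.27 to 0.29, with a median of 0.03. Scn8a had 0.01 ± 0.16 (SE), Nalcn 0.04 ± 0.16 and Scn2a 0.12 ± 0.21. Scn4b had -0.18 ± 0.20 and Scn3b -0.14 ± 0.38. The mean level of Scn8a was 161 ± 14.2 CPM in TRAP KO (SD, n = 4) and 161 ± 23.6 CPM in TRAP WT (SD, n = 3). Scn3a, with the fewest counts, had the widest error, at 0.16 ± 0.56.

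The extremes in TRAP were Scn2b at 0.29 ± 0.27 (SE) and Scn1a at -0.27 ± 0.35 (SE), and both rested on TRAP WT replicate 3. Without that library Scn1a was at 0.30 and Scn2b at 0.01. In that library Scn1a was 1.49 higher and Scn2b 1.16 lower than the mean of the other TRAP WT libraries on the log2(CPM + 1) scale, while Scn8a differed by -0.15. Across all genes in that library, transcripts under 5 kb differed by a median of -0.05 and those of at least 7 kb by 0.16. For TRAP WT replicate 2 these medians were 0.01 and -0.17. Besides Scn1a and Scn8a, the members of at least 7 kb differed in replicate 3 by -0.40 (Scn2a), 0.26 (Scn3a) and 0.42 (Nalcn). Besides Scn2b, those under 5 kb differed by 0.23 (Scn3b) and 0.35 (Scn4b). A part of transcript length in these differences was not tested. The groups of KO and WT overlapped for all 8 genes in both fractions, and the share of all genes that overlap was not counted. For Scn1a in TRAP the overlap came from TRAP WT replicate 3 (241 CPM), since the other TRAP WT libraries (86.8 and 83.3 CPM) lay below all TRAP KO libraries (99.4 to 118 CPM).

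In input the log2 fold changes of KO over WT ran from -0.31 for Scn4b to 0.43 for Scn3b, with a median of -0.04. Scn2a had -0.05 ± 0.08 (SE), Scn8a -0.04 ± 0.09 and Nalcn 0.01 ± 0.08. The input mean of Scn3b was 10.0 ± 0.903 CPM for KO (SD, n = 3) and 7.04 ± 2.04 CPM for WT (SD, n = 4). Its adjusted p was 0.415 (edgeR). For Scn4b the means were 32.9 ± 1.93 CPM for KO (SD, n = 3) and 43.3 ± 12.8 CPM for WT (SD, n = 4). Its adjusted p was 0.578 (edgeR). The spread within input WT was wider for Scn3b and Scn4b, with a coefficient of variation of 29.0% and 29.6%, than for Scn2a (4.70%) and Scn2b (3.06%). Input WT replicates 3 and 4 were high for Scn4b and low for Scn3b, and replicates 1 and 2 the reverse. The oligodendrocyte markers, of which 0 of 8 were at 0 counts, summed to 4984 and 5612 CPM in replicates 1 and 2 and to 6317 and 6816 CPM in replicates 3 and 4. The astroglia markers (1217, 1435, 1539 and 1738 CPM) and the oligodendrocyte precursor markers (41.7 and 46.4 CPM, then 49.6 CPM or more) were likewise higher in replicates 3 and 4 than in 1 and 2. So were the Purkinje markers, at 7130 and 7073 CPM, then 7420 and 7624 CPM. The granule cell markers went the other way, at 5758 and 5713 CPM, then 5573 and 5598 CPM. The interneuron markers (356, 381, 367 and 387 CPM) did not split in this way. The part of these cells in this spread was not tested.

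**Figure D5:**
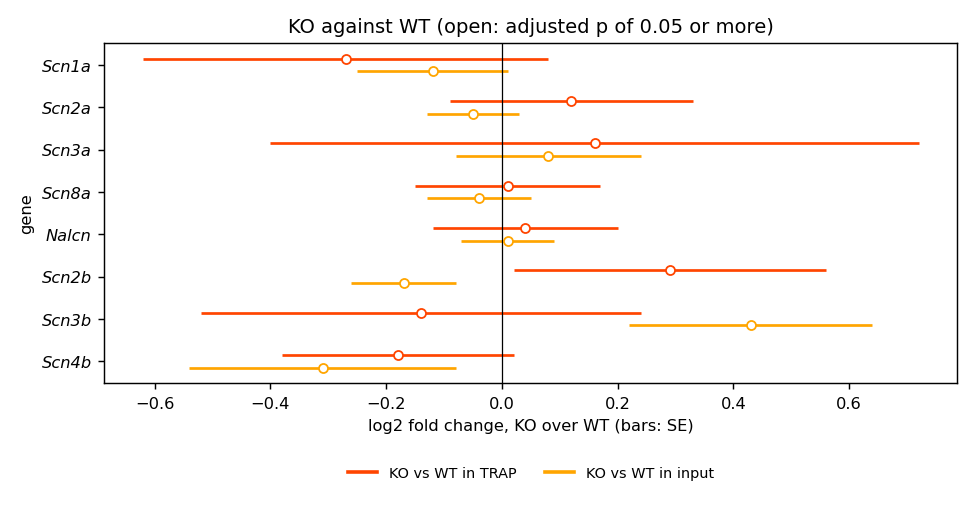
Log2 fold change of KO over WT with its standard error for the 8 genes, in TRAP and in input. All points are open, since 0 passed an adjusted p of 0.05. Scn3a, Scn3b and Scn1a have the widest bars in TRAP.

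Whether the knockout acted differently in the 2 fractions was tested by the interaction of genotype and fraction over 16042 genes. Among all genes 0% passed, and 0 of the 8 sodium channel genes did. In edgeR's test 430 genes in all, and 0 of the 8, had an unadjusted p under 0.05. The DESeq2 Wald test also gave 0 of the 8, and other alternatives up to 2. The largest values were -0.62 ± 0.41 (SE) for Scn3b and 0.47 ± 0.29 (SE) for Scn2b, each at an adjusted p of 0.999 (edgeR). Leaving out TRAP WT replicate 3 gave 0.15 for Scn2b, -0.42 for Scn3b and 0.64 for Scn3a, which was then the largest. The related genes gave the same count. In TRAP and in input 0 of the 14 that could be tested passed for genotype. In input 3 of them had an unadjusted p under 0.05 in edgeR's test, where 2198 of all 15997 genes had one. Unc79 (0.23 ± 0.08 SE) and Unc80 (0.21 ± 0.07 SE) lay higher in KO, and Sptbn4 (-0.29 ± 0.07 SE) lower, with adjusted p from 0.195 to 0.266.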

How the data were processed

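The deposited table holds raw counts per gene, 1 column per library, with Entrez numbers as row names. Per the submitters' processing notes, Salmon 0.8.2 and build mm10 were used, with no role stated. The annotation, the strand setting and whether estimated counts were rounded to the deposited whole numbers are not given in the sources used here. RefSeq GRCm38.p6 named 24045 of 24100 genes. GENCODE M21 gave transcript lengths for 21167.

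Levels are CPM with TMM factors over 14 libraries. The test was edgeR 4.0.16 (R 4.3.3), quasi-likelihood, two-sided, filterByExpr, with sex as covariate. Genotype was fitted in the 7 libraries of a fraction, and TRAP against input and the interaction in all 14. The script was tested on simulated data. Standard errors are the absolute log2 fold change over the square root of F. The 8 genes, lists and tests were chosen with earlier results of these data known. Named genes are the 8 genes, list members that passed or belong to lists of at most 7, and the 3 most correlated genes. A level of 3 counts, 0.0444 to 0.204 CPM, was taken as the smallest readable one and covers counting error only. Alternatives were DESeq2 1.42.0 (size factors, Wald test), library totals, no filter, a mean count of at least 50, no sex term, quality weights (limma 3.58.1), length offsets (loess span 0.3), a replicate block, and each library left out. Some related genes are not reported here.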

Additional observations from a re-analysis of the deposited data

Results flagged for a closer look

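Each of the 8 genes was tested for a far library in input WT and in TRAP KO, the groups of 4 libraries. Of these 16 tests, which share the same libraries, 2 found one, where chance gives about 1 in 20. Groups of 3 libraries were not tested, so TRAP WT replicate 3 could not be flagged. Scn1a in TRAP KO replicate 4 was at 118 CPM against 99.4 to 100 CPM in the other 3, a gap of 0.940 of the range on the log2(CPM + 1) scale. In the same library Scn2a was lowest, at 22.1 against 33.3 to 38.8 CPM, and so was the granule marker sum, at 825 CPM. Scn2a in input WT replicate 4 was at 221 CPM, while the other 3 libraries were at 200 to 203 CPM, and this gap made up 0.844 of the range. Their causes were not tested.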

How the results depend on the processing

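Counts of sodium channel genes that passed TRAP against input were 5 in each genotype. They were 8 with quality weights (3 higher) and 8 with length offsets (5 higher), in WT and in KO. Quality weights also gave more calls over all genes, with 6279 higher and 6806 lower in WT and 6394 and 7061 in KO. Scn2a, Scn3a, Scn3b and Scn4b kept direction and call in all 23 alternatives of both genotypes. With library totals the median of all genes was -0.91 (WT) and -0.85 (KO) in place of -0.09 and -0.11, with 3135 genes higher and 9801 lower in WT against 5937 and 6181. With length offsets it was 0.13 in WT and 0.08 in KO, with 6661 higher and 5274 lower in WT. The cause of these differences was not tested.

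TRAP against input had the other sign with length offsets for Scn8a (0.94 in WT, 0.96 in KO), Nalcn (0.56, 0.50), Unc79 (0.51, 0.32), Nfasc (0.85, 0.77), Nrcam in WT (0.10) and Sptbn4 in KO (0.08). It did so with library totals for Scn2b in WT (-0.46), Scn1a in KO (-0.24), Unc80 (-0.53, -0.58) and Fgf12 (-0.59, -0.59). With a mean count of at least 50, Unc80 was -0.03 and Fgf12 -0.04 in KO. Unc80 in KO was -0.04 with the replicate block and -0.03 to 0.27 with each library left out.

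All genes that passed for genotype in TRAP were 61 with quality weights, 3 with the Wald test of DESeq2, 2 with all 14 libraries in one fit, and 1 to 2 with each library left out. In input they were 294 with the Wald test, 23 when no low counts were filtered, 5 with DESeq2 size factors, 8 with quality weights, 8 with length offsets, 1 with the replicate block, and 1 to 158 with each library left out. The highest was without KO replicate 2 and the lowest without KO replicate 3, WT replicate 1 or WT replicate 2. The interaction gave 1 with the Wald test.

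Genotype values of the 8 genes had the other sign in these cases, and none of them passed. In TRAP, quality weights gave 0.18 for Scn1a and 0.06 for Scn4b, length offsets -0.11 for Scn8a and -0.03 for Nalcn, and all 14 libraries -0.00 for Scn8a. In input, the replicate block gave 0.01 for Scn2a and 0.01 for Scn8a, and length offsets -0.00 for Scn3a and -0.04 for Nalcn. Library totals and no sex term each gave -0.01 for Nalcn. For the interaction, quality weights gave 0.24 for Scn1a and 0.08 for Nalcn, library totals 0.05 for Nalcn, and DESeq2 size factors and the Wald test -0.00 for Scn8a.

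With each library left out, TRAP genotype values ranged from -0.55 to 0.30 for Scn1a, -0.06 to 0.28 for Scn2a, -0.17 to 0.66 for Scn3a, -0.09 to 0.13 for Scn8a, -0.43 to 0.24 for Scn3b, -0.40 to 0.00 for Scn4b and -0.04 to 0.16 for Nalcn. Scn3a was not tested in TRAP without TRAP KO replicate 1. Input values ranged from -0.29 to 0.10 for Scn1a, -0.13 to 0.06 for Scn2a, -0.03 to 0.19 for Scn3a, -0.16 to 0.12 for Scn8a, -0.67 to 0.12 for Scn4b and -0.13 to 0.19 for Nalcn. The interaction ranged from -0.58 to 0.39 for Scn1a, -0.09 to 0.64 for Scn3a, -0.05 to 0.19 for Scn8a and -0.14 to 0.12 for Nalcn.

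Same-numbered libraries are not stated to share an animal. Their deviations from group means correlated by -0.124 to 0.292 between input and TRAP and by -0.196 to 0.143 between genotypes, not above 0.1 in every pair. Between input and TRAP the same-numbered library correlated best in every pair but KO replicate 3 (-0.124, against 0.344 for another number). Between input KO and input WT it also did so for replicates 1 and 2. A pairing of input with TRAP thus stays possible, and the main tests do not model it. For TRAP against input, the replicate block joins same-numbered libraries of a genotype, KO replicate 3 included. It leaves out libraries without a partner and has no sex term. With it 5 sodium channel genes passed TRAP against input in each genotype. For genotype, the block ties KO and WT libraries by number alone, also with no sex term. Low counts limit Scn3a in TRAP. The longest transcript was also the longest coding one for all 8 genes, so that alternative could not alter a share.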
